A study of Mus musculus with 8 samples.

Results

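Lyl1 and 9 other genes of blood vessel endothelium were followed in the esophagus of mice that lack monoacylglycerol lipase (MGL), the enzyme that degrades the endocannabinoid 2-arachidonoylglycerol. These 10 genes were found by symbol among the 32849 symbols of the deposited count table, and each of them is listed there. They comprise the transcription factor genes Lyl1, Tal1, Lmo2, Erg and Sox17, and the surface and receptor genes Pecam1, Cdh5, Kdr, Tek and Tie1. Lyl1 was taken up because its counts differ between the genotypes in these same libraries, and the rest were added as endothelial genes with the results known. The difference between MGL KO and WT is therefore a description for the 10 genes. No p-value of theirs is printed, and the numbers of them past a threshold support nothing.

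RNA came from frozen esophagus of healthy mice, with 4 libraries labelled MGL KO and 4 labelled MGL WT, and it was selected for poly(A) tails. The MGL KO mice carry a global deletion of Mgll and were bred in house with WT littermates. The study used adult mice of both sexes. The labels give neither the age nor the sex of single animals and do not name the animal behind each library, while the study counts its replicates as esophagi. The p-values measure the spread between these libraries.

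Endothelial cells line blood vessels and hold their neighbors through cadherin and PECAM1 contacts. They receive growth signals through KDR, the main receptor for vascular endothelial growth factor (VEGF), and stability signals through the angiopoietin receptor TEK with its relative TIE1. LYL1 and TAL1 are closely related basic helix-loop-helix factors that bind DNA with E proteins and work with the bridging protein LMO2 in blood-forming cells and in endothelium. ERG, a factor of the ETS family, and SOX17 hold up endothelial identity, SOX17 mostly in arteries.

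Promoter sequences are shown for Lyl1, for its relative Tal1, and for the receptor genes Tie1 and Tek, so that the gene with the largest difference can be set beside members of its family and of its cell type. Each is the stretch of 250 bases before the transcription start in the RefSeq promoter table of build GRCm38.p6, written 5′ to 3′ on the strand of the gene. Capitals mark GGAA on either strand (GGAA or TTCC), the core that ETS factors such as ERG recognize. The Lyl1 stretch lies at chr8:84701207-84701456 on the forward strand, the first of the Tal1 stretches at chr4:115056176-115056425 on the forward strand, that of Tie1 at chr4:118489850-118490099 on the reverse strand, and that of Tek at chr4:94739039-94739288 on the forward strand.
Lyl1: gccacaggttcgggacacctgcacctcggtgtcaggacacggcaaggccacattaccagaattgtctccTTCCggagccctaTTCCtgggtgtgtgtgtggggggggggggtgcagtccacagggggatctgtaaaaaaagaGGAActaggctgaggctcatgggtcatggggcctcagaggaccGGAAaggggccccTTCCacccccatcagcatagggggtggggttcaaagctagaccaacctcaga
Tal1: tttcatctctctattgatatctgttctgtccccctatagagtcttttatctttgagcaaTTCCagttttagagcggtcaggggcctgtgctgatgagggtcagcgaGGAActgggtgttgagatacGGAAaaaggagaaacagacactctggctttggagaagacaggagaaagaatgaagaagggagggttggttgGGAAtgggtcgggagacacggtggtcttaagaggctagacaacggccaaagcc
Tie1: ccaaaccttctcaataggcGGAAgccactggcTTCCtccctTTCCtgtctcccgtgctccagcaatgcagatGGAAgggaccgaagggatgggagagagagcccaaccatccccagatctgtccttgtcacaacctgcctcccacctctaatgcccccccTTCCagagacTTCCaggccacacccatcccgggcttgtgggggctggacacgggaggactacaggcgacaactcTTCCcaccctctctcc
Tek: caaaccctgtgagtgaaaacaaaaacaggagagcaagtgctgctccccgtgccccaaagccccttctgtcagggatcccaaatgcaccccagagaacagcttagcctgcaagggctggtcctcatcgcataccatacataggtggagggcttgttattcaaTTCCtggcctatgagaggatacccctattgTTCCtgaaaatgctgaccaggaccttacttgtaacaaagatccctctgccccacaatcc

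GGAA was found 5 times before Lyl1, 4 times before Tal1, 7 times before Tie1 and 2 times before Tek. It is common, since 93.4% of the 32536 promoter stretches of the same length held it, with a median of 3 matches. The longer form CCGGAA, which contains GGAA and was also read on both strands, occurred 2 times before Lyl1 and in 12.1% of all stretches. It was found 1 time before Kdr, and not in the stretches of Tal1, Erg, Tie1 and Tek. Erg and Tal1 have more than 1 listed start. GATAA, the core of GATA factor sites, was found in 0 places before Lyl1 and in 22.5% of all stretches. CANNTG, the E-box that LYL1 and TAL1 complexes can bind, occurred 1 time before Lyl1 and in 66.2% of all stretches. RefSeq entries were matched for 6 of the 10 genes, the others being Cdh5, Lmo2, Pecam1 and Sox17. These matches describe the letters in the window.

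The libraries held between 13479069 and 17090152 counts. Values are normalized CPM, counts relative to the size of the library, scaled by TMM factors between 0.82 and 1.11. A count of 3, which is the limit that a count of 0 allows, equals at most 0.271 CPM, and such limits cover counting error only. Mgll was at 13.7 ± 1.54 CPM in MGL KO and 81.2 ± 9.97 CPM in WT (SD, n = 4 each). MGL KO replicate 4 stood apart, with 516.2 CPM summed over 6 airway ciliated genes against at most 15.6 in any other library. The summed Y-linked genes lay between 185.6 and 223.7 CPM in all 8 libraries, so each held RNA from male tissue. The mean log2 CPM of these genes, used below as a covariate, varied only from -0.10 to 0.12 around its average. That covariate is therefore not a correction for sex. All 10 genes were detected in every library. Lmo2 and Tal1 ran opposite to the surface and receptor genes from library to library, and Lyl1 showed no clear link to them (Pearson's r between -0.13 and 0.27 with the other 9 genes). Lmo2, Tal1 and Lyl1 are called endothelial here only because they were listed as such.

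Lyl1 showed the largest difference of the 10 genes. It was at 5.45, 5.50, 5.80 and 5.45 CPM in MGL KO replicates 1 to 4, and at 19.1, 9.25, 11.8 and 11.3 CPM in WT replicates 1 to 4. All MGL KO libraries lay below all WT libraries, and WT replicate 1 was the highest of its group by a wide margin. The means were 5.55 ± 0.17 CPM in MGL KO and 12.9 ± 4.32 CPM in WT (SD, n = 4 each), with MGL KO at 43.2% of WT. The log2 fold change, MGL KO minus WT, was -1.21 (standard error 0.23). Without WT replicate 1 it was -0.95, and with each other library left out in turn it ran from -1.34 to -1.20. Leaving out MGL KO replicate 4, the library with airway genes, gave -1.20. In bulk tissue, fewer cells of a type and less RNA per cell cannot be told apart.

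**Figure D1:**
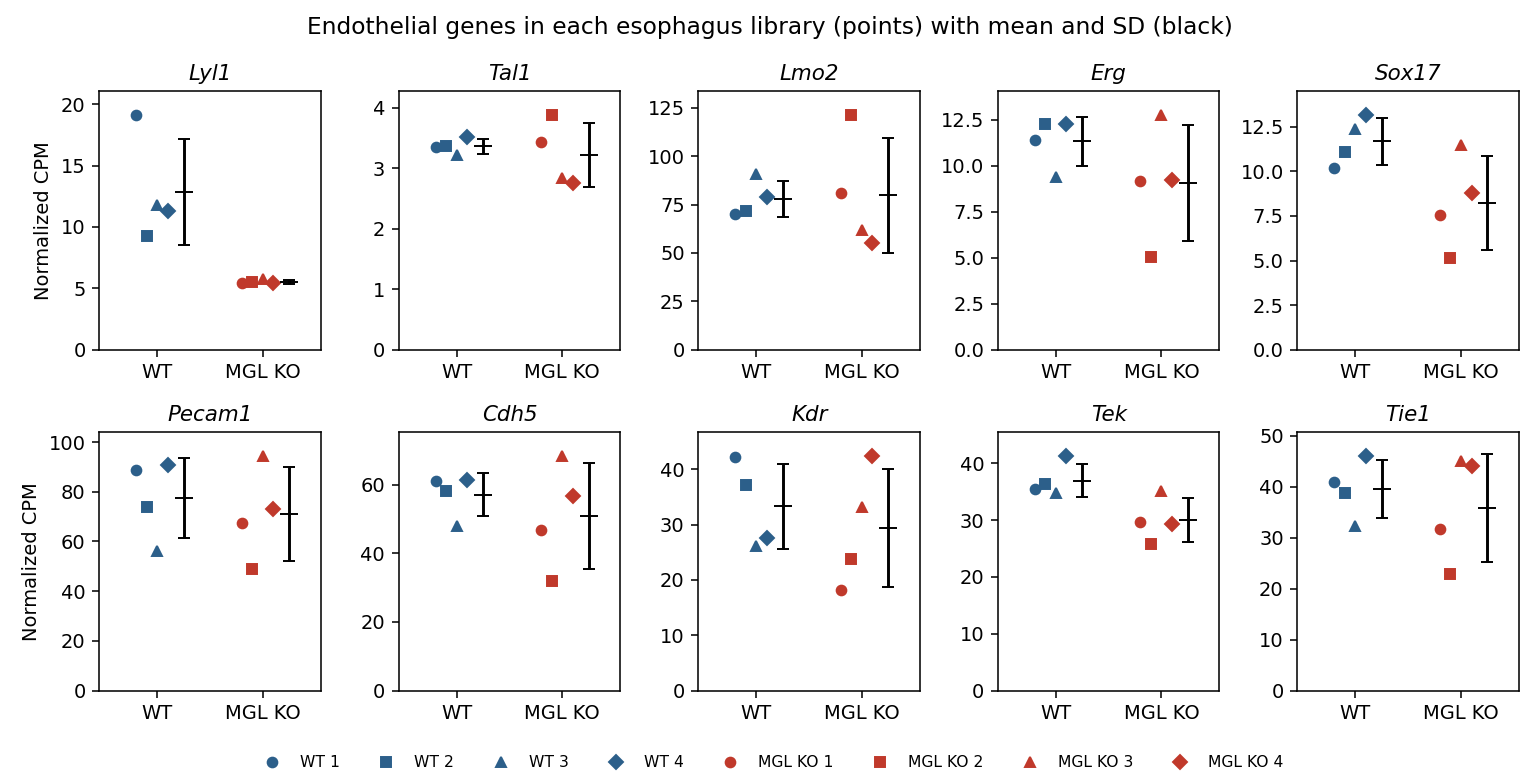
Normalized CPM (vertical axes, from 0) of the 10 endothelial genes in each WT (blue) and MGL KO (red) library, with 1 marker shape per replicate number and the mean with its SD in black (n = 4). Lyl1 is the gene without overlap between the groups (5.45 to 5.80 CPM in MGL KO, 9.25 to 19.1 in WT).

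These Lyl1 values rest on 61 to 97 counts in the MGL KO and on 162 to 343 counts in the WT libraries. The exact Poisson 95% interval, which covers counting error only, reached at most 7.09 CPM in an MGL KO library, the upper bound of replicate 3, and went down to 7.88 CPM in WT replicate 2, the lowest bound of that group. Within MGL KO, the SD of 0.17 CPM was smaller than the counting error of a single library, which was between 0.55 and 0.70 CPM. In WT, the SD of 4.32 CPM was larger than the counting error of each library, 0.73 to 1.03 CPM.

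In GRCm39, Lyl1 occupies bases 85427936 to 85431569 of chromosome 8, forward strand, within the limits of the annotated gene Nfix on the opposite strand (85426505 to 85527046). Exons of Lyl1 and Nfix share 229 bases in the GENCODE annotation, and the use of strand in counting is not given in the sources used here, so reads from the shared part cannot be assigned with certainty. Nfix, which encodes a nuclear factor I transcription factor, took many more counts than Lyl1, at 495.4 ± 64.6 CPM in MGL KO and 532.3 ± 44.5 CPM in WT (SD, n = 4 each). For Nfix the log2 fold change was -0.10 with a standard error of 0.13 (adjusted p = 0.825 in the quasi-likelihood test of edgeR). The part of Nfix reads in the Lyl1 counts was not tested. Trmt1, a tRNA methyltransferase gene that ends 385 bases before Lyl1 starts, was at 72.1 ± 9.89 CPM in MGL KO and 73.6 ± 7.47 CPM in WT (log2 fold change -0.03, adjusted p = 0.952). The nearest tested gene on the other side that does not overlap Lyl1, Dand5, an inhibitor of Nodal signaling, was at 7.48 ± 2.31 and 6.36 ± 1.05 CPM, respectively (adjusted p = 0.789).

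Tal1, the close relative of Lyl1, had the lowest level per kilobase of exon among the 10 genes. Tal1 was at 3.43, 3.88, 2.84 and 2.75 CPM in MGL KO replicates 1 to 4 and at 3.35, 3.37, 3.22 and 3.52 CPM in WT replicates 1 to 4. The MGL KO values spread to both sides of the WT values. The fitted log2 difference was -0.06 (standard error 0.21), ranging with 1 library left out from -0.16 to 0.00.

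Lmo2, the partner that links LYL1 or TAL1 to other factors, was at 80.8, 121.4, 61.9 and 55.1 CPM in MGL KO replicates 1 to 4. In WT replicates 1 to 4 it was at 70.1, 71.8, 90.6 and 78.9 CPM. The groups overlapped, with the highest and the lowest value both in MGL KO. Its log2 fold change of 0.03 (standard error 0.23) was the one value above 0 among the 10 genes, and it ranged from -0.24 without MGL KO replicate 2 to 0.18 without MGL KO replicate 4. Exons of Lmo2 share 230 bases with the long noncoding RNA gene 4931422A03Rik on the opposite strand, which was at 2.48 CPM or less in all libraries.

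Erg was at 9.18, 5.05, 12.8 and 9.22 CPM in MGL KO replicates 1 to 4 and at 11.4, 12.3, 9.40 and 12.3 CPM in WT replicates 1 to 4. MGL KO replicate 3 was the highest and MGL KO replicate 2 the lowest of all libraries. The means were 9.05 ± 3.15 and 11.3 ± 1.35 CPM (SD, n = 4 each), a log2 fold change of -0.32 (standard error 0.26). It was -0.12 without MGL KO replicate 2 and -0.53 without MGL KO replicate 3.

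Sox17 followed Lyl1 in the size of its difference. MGL KO replicates 1 to 4 had 7.53, 5.14, 11.5 and 8.77 CPM, and WT replicates 1 to 4 had 10.2, 11.1, 12.4 and 13.2 CPM. MGL KO replicate 3 was the one library of its group inside the WT range. Its log2 fold change of -0.50 (standard error 0.24) stayed between -0.71 and -0.33 with 1 library left out. A long noncoding RNA gene on the opposite strand, Gm37587, shares 1011 bases of exon with Sox17. Tal1, Cdh5 and Tie1 also share 87 to 250 exon bases with such genes (Gm33786, Gm64067 and Gm70435). These 4 partners were not measured here, and reads from the shared bases cannot be told apart without strand.

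Pecam1 encodes an adhesion molecule of platelets and endothelium. It was at 67.5, 48.8, 94.5 and 73.2 CPM in MGL KO replicates 1 to 4 and at 88.9, 73.7, 56.1 and 90.9 CPM in WT replicates 1 to 4. The groups overlapped over most of their range, and the log2 fold change was -0.12 (standard error 0.22). Cdh5, the cadherin of endothelial junctions, was at 46.8, 31.9, 68.4 and 56.8 CPM in MGL KO and at 61.1, 58.2, 48.0 and 61.3 CPM in WT replicates 1 to 4. Both the highest and the lowest Cdh5 value were in MGL KO, and the fitted log2 difference was -0.16 (standard error 0.21).

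Kdr, the VEGF receptor, was at 18.2, 23.8, 33.2 and 42.4 CPM in MGL KO replicates 1 to 4. It was at 42.3, 37.1, 26.1 and 27.6 CPM in WT replicates 1 to 4. The groups covered nearly the same upper range, and the log2 fold change was -0.18 (standard error 0.27). It was 0.00 without MGL KO replicate 1, -0.04 without WT replicate 1 and -0.41 without MGL KO replicate 4. Tie1 was at 31.6, 22.8, 45.0 and 44.0 CPM in MGL KO and at 40.9, 38.7, 32.3 and 46.0 CPM in WT replicates 1 to 4, a log2 fold change of -0.14 (standard error 0.22).

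Tek, the angiopoietin receptor, varied least among the receptors. MGL KO replicates 1 to 4 had 29.6, 25.8, 35.1 and 29.3 CPM, and WT replicates 1 to 4 had 35.5, 36.4, 34.7 and 41.3 CPM. The groups touched only through MGL KO replicate 3, which was above WT replicate 3. Its log2 fold change of -0.30 (standard error 0.12) stayed between -0.39 and -0.23 with 1 library left out.

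Of the 10 genes, 9 had a log2 fold change below 0, as did 47% of the 14864 genes tested, and the median was -0.17 against 0.02 over all genes tested. None passed an adjusted p of 0.05 in edgeR's quasi-likelihood test, which called 0.0471% of all genes (0.0269% as lower in MGL KO), and 2 of the 10, Lyl1 and Tek, had an unadjusted p under 0.05, as did 8.65% of all genes. Both were lower in MGL KO, as were 4.29% of all genes at that threshold. Groups without overlap were found for 1 of the 10, Lyl1, and for 6.02% of all genes, or 3.3% with MGL KO below WT. A log2 fold change below -1 was found for Lyl1 alone and for 1.67% of all genes. Because the genes were chosen on this contrast, these counts are a description. DESeq2 and edgeR's exact test each called 1 of the 10, Lyl1, and over all genes with an adjusted p they called 0.981% and 0.437%, respectively. Without MGL KO replicate 4, the log2 fold change was -0.53 for Sox17, -0.32 for Erg, -0.29 for Tek, -0.41 for Kdr, -0.14 for Pecam1, -0.22 for Cdh5 and -0.25 for Tie1. Leaving out MGL KO replicate 2 instead, the library with the lowest level of most of these genes, turned Pecam1 (0.02), Cdh5 (0.01) and Tie1 (0.03) above 0 and left 7 of the 10 genes below 0. The median of the 10 genes was -0.31 without MGL KO replicate 3 and -0.11 without MGL KO replicate 1.

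The genes lie on 7 chromosomes of GRCm39, and 3 of them, Tal1 (114913623 to 114928952), Tek (94627291 to 94763224) and Tie1 (118328385 to 118347261), are on chromosome 4. Cdh5 (104828231 to 104871143) is on chromosome 8 like Lyl1, far from it. Lmo2 is on chromosome 2 (103788331 to 103812355), Erg on 16 (95160028 to 95387452), Sox17 on 1 (4561151 to 4567784), Pecam1 on 11 (106543689 to 106641454) and Kdr on 5 (76093487 to 76139884).

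The order of the levels was read per kilobase of annotated exon, the only scale on which genes were compared with each other. In WT, mean levels were 33.3 CPM per kb for Lmo2, 13.0 for Cdh5, 7.89 for Tie1, 7.74 for Pecam1, 6.16 for Tek, 4.31 for Lyl1, 3.62 for Kdr, 3.26 for Erg, 2.20 for Sox17 and 0.66 for Tal1. From Tie1 down to Erg, the ranges of the 4 libraries overlapped between neighbors in this order, whereas Lmo2, Cdh5, Sox17 and Tal1 were each apart from their neighbors. In MGL KO, Lyl1 was at 1.86 ± 0.06 CPM per kb (SD, n = 4) and took place 8 instead of place 6, behind Kdr at 3.20 and Erg at 2.60 and ahead of Sox17 at 1.54. Lyl1 overlapped in its MGL KO range with Erg, which was the higher in 3 of 4 libraries, and with Sox17, which was the lower in 3 of 4. Lmo2 was the highest and Tal1 the lowest in both genotypes. Exon lengths were taken over all annotated transcripts, which lowers the values of genes with long or many transcripts.

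Lyl1 was next set against the endothelial surface genes of the same library. Per 1000 CPM of the sum of Pecam1, Cdh5, Kdr, Tek and Tie1, Lyl1 had 28.1, 35.9, 21.0 and 22.2 CPM in MGL KO replicates 1 to 4 and 71.2, 37.9, 59.6 and 42.2 CPM in WT replicates 1 to 4. All MGL KO values were below all WT values, with a gap of only 35.9 to 37.9 between MGL KO replicate 2 and WT replicate 2. The summed surface genes lay between 153.2 and 276.3 CPM in MGL KO and between 197.3 and 268.7 CPM in WT. On the log2 scale, with a prior count of 1, the mean difference between Lyl1 and the average of these 5 genes was -2.82 ± 0.35 in MGL KO and -1.89 ± 0.42 in WT (SD, n = 4 each), so that MGL KO was lower by -0.94. Read the same way, MGL KO minus WT was -0.34 for Sox17, -0.17 for Erg, 0.14 for Tal1 and 0.19 for Lmo2, and the groups overlapped for each of these 4 genes.

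Within the genotypes, Erg, Sox17 and most surface and receptor genes varied together from library to library, and no such link was seen for Lyl1. As a description over 8 libraries, which share depth and tissue makeup among all genes, deviations of log2 CPM from the group means were correlated. Among Erg, Sox17, Pecam1, Cdh5, Tek and Tie1, Pearson's r was between 0.69 and 0.96 over 15 pairs. Kdr had r between 0.15 and 0.60 with these 6 genes. For Lyl1, r with the other 9 genes was between -0.13 and 0.27. Its SD of 0.17 CPM in MGL KO was below the counting error of a single library (0.55 to 0.70 CPM). The MGL KO libraries could therefore hardly show a link. Tal1 and Lmo2 had r of 0.89 with each other and ran opposite to the endothelial genes, with r between -0.93 and -0.60 for Lmo2 and between -0.81 and -0.51 for Tal1.

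**Figure D2:**
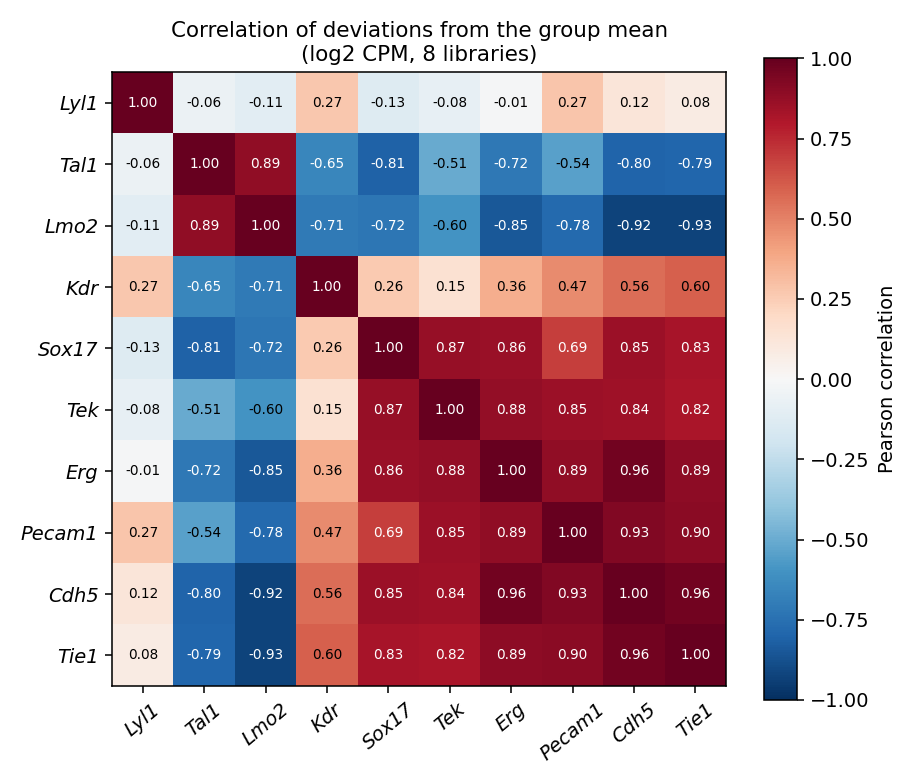
Pearson correlation between the 10 genes (rows and columns) of their deviations from the group mean, in log2 CPM over 8 libraries, from -1 (blue) to 1 (red). The Lyl1 row stays between -0.13 and 0.27, the block of Sox17, Tek, Erg, Pecam1, Cdh5 and Tie1 is 0.69 or higher, and the Tal1 and Lmo2 rows are negative toward that block.

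Lmo2 was high where skeletal muscle genes were high. The esophagus of mice has a coat of striated muscle, and the sum of 8 skeletal muscle genes was highest in MGL KO replicate 2 with 86868 CPM, where Lmo2 was at 121.4 CPM. It was next in WT replicate 3 with 73339 CPM, where Lmo2 was at 90.6 CPM, and lowest in MGL KO replicate 4 with 36942 CPM, where Lmo2 was at 55.1 CPM. The other 5 libraries had 47385 to 58232 CPM of muscle genes and 61.9 to 80.8 CPM of Lmo2. Cdh5 was lowest, at 31.9 CPM, in the library richest in muscle genes. The part of muscle in the Lmo2 level was not tested.

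**Figure D3:**
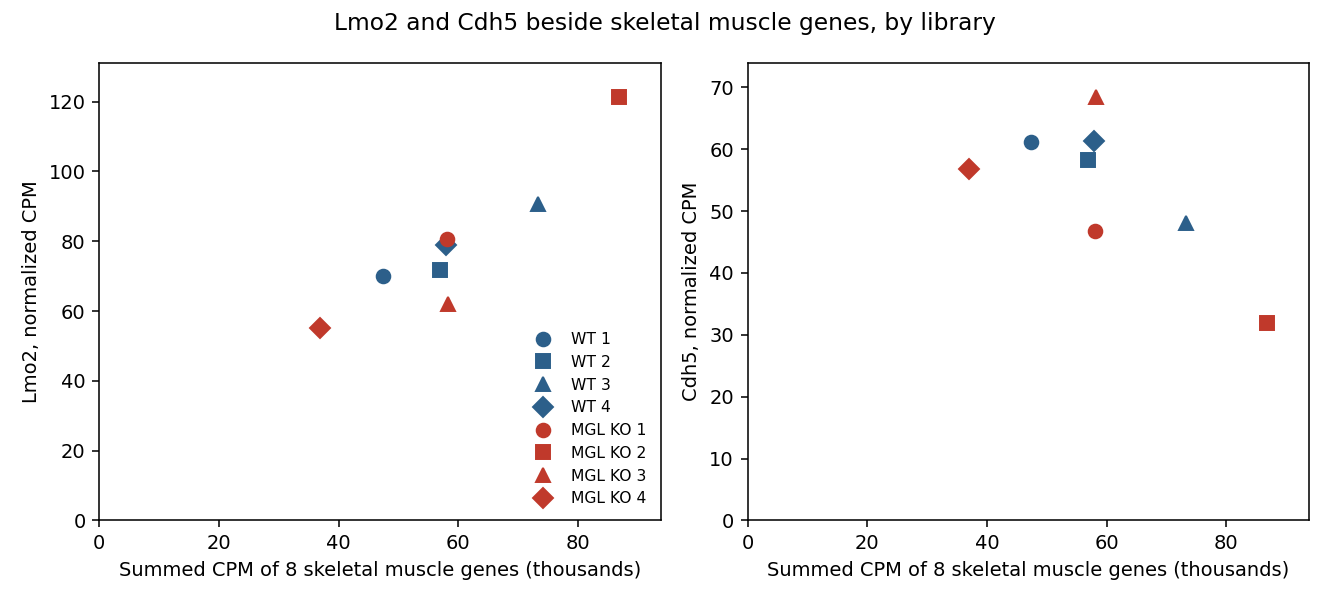
Normalized CPM of Lmo2 (left) and Cdh5 (right) against the sum of 8 skeletal muscle genes in units of 1000 CPM, by library, WT in blue and MGL KO in red. MGL KO replicate 2 has the most muscle signal, the highest Lmo2 (121.4 CPM) and the lowest Cdh5 (31.9 CPM).

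A wider set of 72 blood vessel genes, which holds none of the 10 genes, was used to see how other vessel genes compared between genotypes, and 70 of them were tested. None passed an adjusted p of 0.05 in edgeR's quasi-likelihood test (the lowest was 0.458), and 7 had an unadjusted p under 0.05, against 8.65% of all genes. Of these 7, 4 were lower and 3 higher in MGL KO, against 4.29% and 4.35% of all genes. That balance was 10 lower and 2 higher without MGL KO replicate 3, and 8 lower and 7 higher with limma-voom with quality weights. The shares over all genes were not counted for these fits. DESeq2 called 1 of the 70 genes, Rgcc, against 0.981% of all genes, and the exact test and limma-voom called 0, against 0.437% and 0.168% of all genes. The groups did not overlap for 5 of the 70 genes (7.14%), against 6.02% of all genes. A log2 fold change below 0 was found for 46 of the 70 (65.7%), against 47% of all genes. The median was -0.10 (-0.03 without WT replicate 1, -0.21 without MGL KO replicate 4). With 1 library left out, 38 to 55 of the 70 were below 0 (38 when it was MGL KO replicate 2, 55 when it was MGL KO replicate 4).

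Pan-endothelial markers were mostly on the lower side, with 23 of 26 below 0, against 47% of all genes, and a median log2 fold change of -0.25. Without MGL KO replicate 2, which had the lowest sum of these markers (518.3 CPM, against 593.1 to 828.3 CPM elsewhere), 17 of 26 were below 0 and the median was -0.12. Egfl7, a secreted protein of endothelium, was at 17.5 ± 5.27 CPM in MGL KO and 26.5 ± 1.41 CPM in WT (log2 fold change -0.59, standard error 0.22, adjusted p = 0.523). Its MGL KO libraries all lay below WT, as for 3.3% of all genes, with 9.84 CPM in replicate 2 and 18.8 to 21.7 CPM in the others. Cd34, a surface sialomucin of endothelium and stroma, was at 86.5 ± 23.8 and 123.8 ± 18.6 CPM (adjusted p = 0.531). S1pr1, the receptor for sphingosine 1-phosphate, was at 31.9 ± 7.01 CPM in MGL KO and 22.6 ± 6.15 CPM in WT (adjusted p = 0.580).

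Genes that work with LYL1, TAL1 and LMO2 gave a median log2 fold change of -0.06 over 7 genes. Ldb1, which joins LMO2 complexes into larger ones, was at 97.5 ± 20.1 CPM in MGL KO and 126.4 ± 6.27 CPM in WT (log2 fold change -0.37, standard error 0.15, adjusted p = 0.559). Fli1, the ETS relative of ERG, was at 10.9 ± 3.00 and 14.4 ± 5.01 CPM (adjusted p = 0.690), and Runx1 at 19.7 ± 13.4 and 13.5 ± 3.27 CPM (adjusted p = 0.714). The higher Runx1 mean of MGL KO came from replicate 4, the library with airway genes, at 39.3 CPM against 10.2 to 17.4 CPM in the others of its group. Ldb1 was the one of these 3 whose groups did not overlap, with MGL KO below WT as for 3.3% of all genes.

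Other endothelial transcription factors had a median log2 fold change of 0.36 over 11 genes tested, and 3 of them were below 0, against 47% of all genes. This direction rested on MGL KO replicate 4, the library with airway genes, since without it the median was -0.08 and 6 of the 11 were below 0. The median was 0.18 with the replicate number as a block and 0.15 with the Y-linked covariate. Foxo1, which restrains endothelial growth, was at 69.7 ± 7.16 CPM in MGL KO and 52.3 ± 8.62 CPM in WT (log2 fold change 0.41, standard error 0.13, adjusted p = 0.503). Its groups did not overlap, as for 6.02% of all genes. Nfatc1 was at 58.2 ± 6.72 and 45.5 ± 7.38 CPM (adjusted p = 0.548), and the Notch target Heyl at 11.7 ± 3.42 and 7.98 ± 1.35 CPM (adjusted p = 0.588). Foxo1, Nfatc1 and Ldb1 are also expressed outside vessels. Sox18, named after its values were seen because its groups did not overlap (as for 6.02% of all genes), was at 7.17 ± 2.84 CPM in MGL KO and 10.8 ± 0.41 CPM in WT (adjusted p = 0.620).

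Among vascular signaling genes and vessel type genes, the median log2 fold change was -0.18 over 9 Notch and VEGF co-receptor genes and 0.06 over 12 artery, vein and capillary genes. The first was -0.03 without WT replicate 1 and -0.33 without MGL KO replicate 4. The second was -0.14 without MGL KO replicate 4 and -0.02 with the replicate number as a block. Over all libraries 5 of its 12 genes were below 0, against 47% of all genes, and without MGL KO replicate 4 it was 9. Aplnr, the apelin receptor, was at 7.73 ± 2.06 CPM in MGL KO and 13.4 ± 2.84 CPM in WT (log2 fold change -0.79, standard error 0.24, adjusted p = 0.478). Jag1 was at 37.3 ± 13.0 and 51.9 ± 8.25 CPM (adjusted p = 0.646), and Notch1 at 39.1 ± 17.4 and 51.5 ± 7.31 CPM (adjusted p = 0.747). Rgcc, a gene of capillary endothelium, had the smallest p of the vessel genes and went the other way, at 17.0 ± 4.02 CPM in MGL KO and 9.56 ± 2.12 CPM in WT (log2 fold change 0.83, standard error 0.22, adjusted p = 0.458). Its libraries held 12.9 to 22.5 CPM in MGL KO and 7.43 to 11.6 CPM in WT, without overlap, as for 6.02% of all genes. Gpihbp1, which carries lipoprotein lipase across capillaries, was at 11.9 ± 2.83 and 8.45 ± 1.66 CPM (adjusted p = 0.580), and Gja4, an arterial connexin, at 4.23 ± 1.21 and 6.03 ± 1.13 CPM (adjusted p = 0.629).

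A list of flow and cytokine responsive genes, which joins adhesion genes of activated endothelium with Klf2 and Klf4 of quiescent endothelium, had a median log2 fold change of -0.10 over 5 tested, which was 0.17 without WT replicate 1. Selp, the P-selectin gene, was at 0.84 ± 0.41 CPM in MGL KO and 2.10 ± 1.35 CPM in WT (adjusted p = 0.605), Klf2 at 59.7 ± 9.46 and 50.3 ± 7.41 CPM (adjusted p = 0.664), and Klf4, which squamous epithelium also expresses, at 164.5 ± 50.6 and 129.2 ± 33.1 CPM (adjusted p = 0.688). Ligands of the VEGF and angiopoietin receptors had a median log2 fold change of -0.03 over 7 tested, with 0 at an unadjusted p under 0.05, against 8.65% of all genes. Leaving out 1 library in turn gave medians from -0.20 to -0.06. Vegfa was at 188.3 ± 22.9 CPM in MGL KO and 222.1 ± 48.1 CPM in WT, and Vegfb at 61.5 ± 16.6 and 61.6 ± 10.8 CPM.

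Lymphatic vessel genes were below 0 for 6 of 6, against 47% of all genes, with a median of -0.40. At an unadjusted p under 0.05 there were 0, against 8.65% of all genes. Without MGL KO replicate 2 the median was -0.12, and without MGL KO replicate 3 it was -0.74, with 2 genes at an unadjusted p under 0.05. The share over all genes was not counted for that fit. Lyve1 was at 58.0 ± 11.2 CPM in MGL KO and 62.7 ± 7.78 CPM in WT, and Mmrn1 at 19.9 ± 10.9 and 24.4 ± 6.21 CPM.

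**Figure D4:**
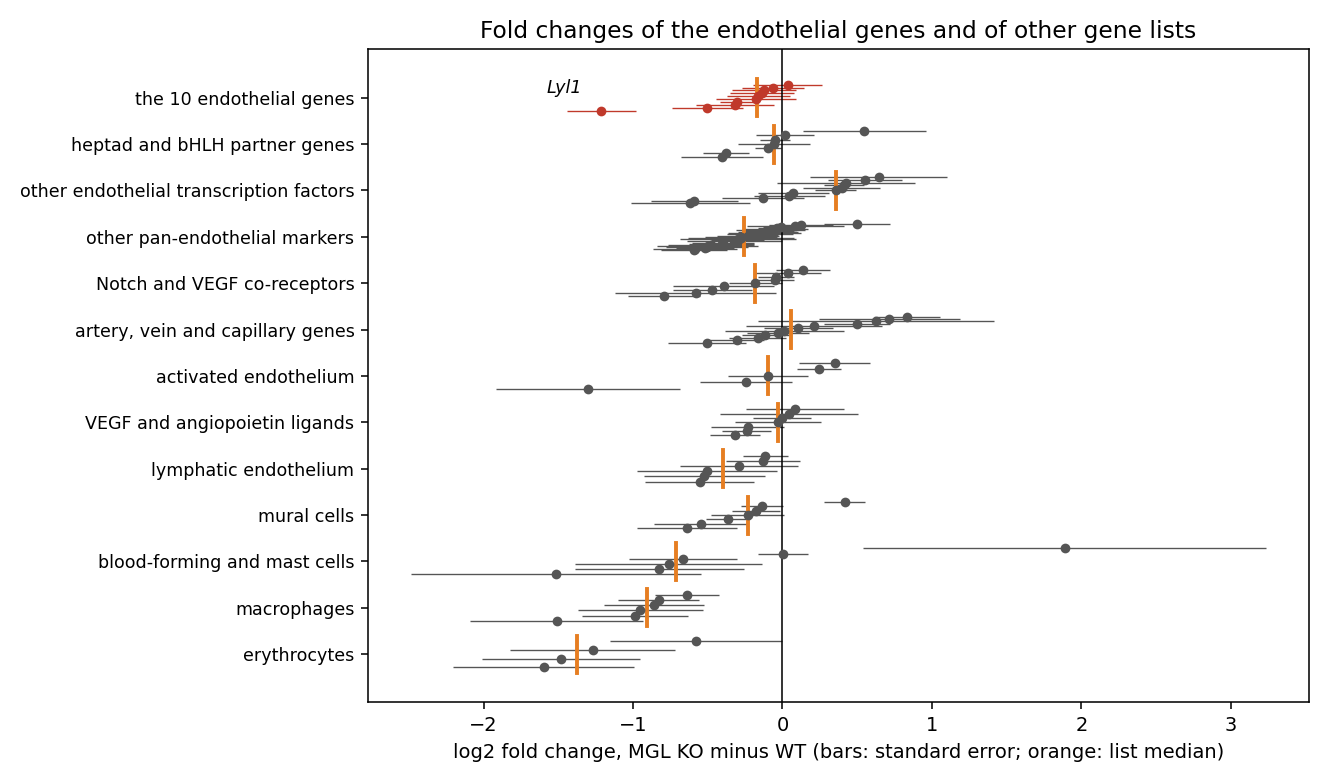
Log2 fold change, MGL KO minus WT (horizontal axis), of each tested gene, by gene list, with its standard error, and the list median in orange. Lyl1 at -1.21 is apart from the other 9 genes of the top list, and the macrophage and erythrocyte lists have medians of -0.90 and -1.37.

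Blood cells express Lyl1 too, so markers of blood cells were set beside it. All 6 macrophage genes were lower in MGL KO at an unadjusted p under 0.05 (against 4.29% of all genes), with a median log2 fold change of -0.90 against 0.02 over all genes. None passed an adjusted p of 0.05 in edgeR's quasi-likelihood test, the exact test or DESeq2. Summed over the 6 genes, the level was 132.0, 154.5, 166.4 and 142.4 CPM in MGL KO replicates 1 to 4 and 479.1, 187.9, 157.1 and 277.3 CPM in WT replicates 1 to 4. WT replicate 1, which had the highest Lyl1, was also the highest here. Without it, 3 of the 6 genes had an unadjusted p under 0.05 and the median was -0.47. The count was also 3 without MGL KO replicate 1, and 2 with the replicate number as a block or with the mean log2 CPM of the Y-linked genes as a covariate. C1qa, a complement gene of macrophages, was at 44.0 ± 4.77 and 78.1 ± 34.8 CPM (adjusted p = 0.503), and Csf1r, the receptor for macrophage growth factor, at 34.6 ± 3.62 and 62.6 ± 33.9 CPM (adjusted p = 0.550).

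WT replicate 3 had 157.1 CPM of macrophage genes, within the MGL KO range, and 11.8 CPM of Lyl1, about 2.03 times the highest MGL KO value. The part of macrophages in the Lyl1 level was not tested. Genes of blood-forming and mast cells had a median log2 fold change of -0.71 over 6 of 10 genes tested, with sums of 25.4 to 79.1 CPM in MGL KO and 28.8 to 118.5 CPM in WT. Without WT replicate 1 the median was -0.10, with 3 of the 6 genes below 0. Ptprc, the CD45 gene, reached 71.9 CPM in WT replicate 1 and lay between 8.75 and 31.2 CPM elsewhere, while Itga2b was at 11.1 ± 2.18 and 11.1 ± 0.49 CPM. The mast cell genes Cpa3 and Ms4a2 and the erythroid factor gene Gata1 did not pass the count filter.

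Erythrocyte genes, which mark blood left in the vessels, were below 0 for 4 of 4 tested, against 47% of all genes, and 3 of them had an unadjusted p under 0.05, against 4.29% of all genes, with a median log2 fold change of -1.37. None of them had an unadjusted p under 0.05 without WT replicate 2 (median -0.98), without WT replicate 3 (median -1.24) or with the replicate number as a block (median -1.24), and 1 had without MGL KO replicate 1. Their sums ran from 29.9 to 150 CPM in MGL KO and from 115.7 to 431.9 CPM in WT, with overlap. Hba-a1 was at 78.8 ± 43.2 and 190.2 ± 118.8 CPM (adjusted p = 0.578) and Hbb-bt at 10.6 ± 4.96 and 29.6 ± 18.1 CPM (adjusted p = 0.523). The globin genes are near copies, so reads could be split between them. The highest erythrocyte sum was in WT replicate 2, the WT library with the lowest Lyl1. The part of residual blood in the Lyl1 level was not tested.

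**Figure D5:**
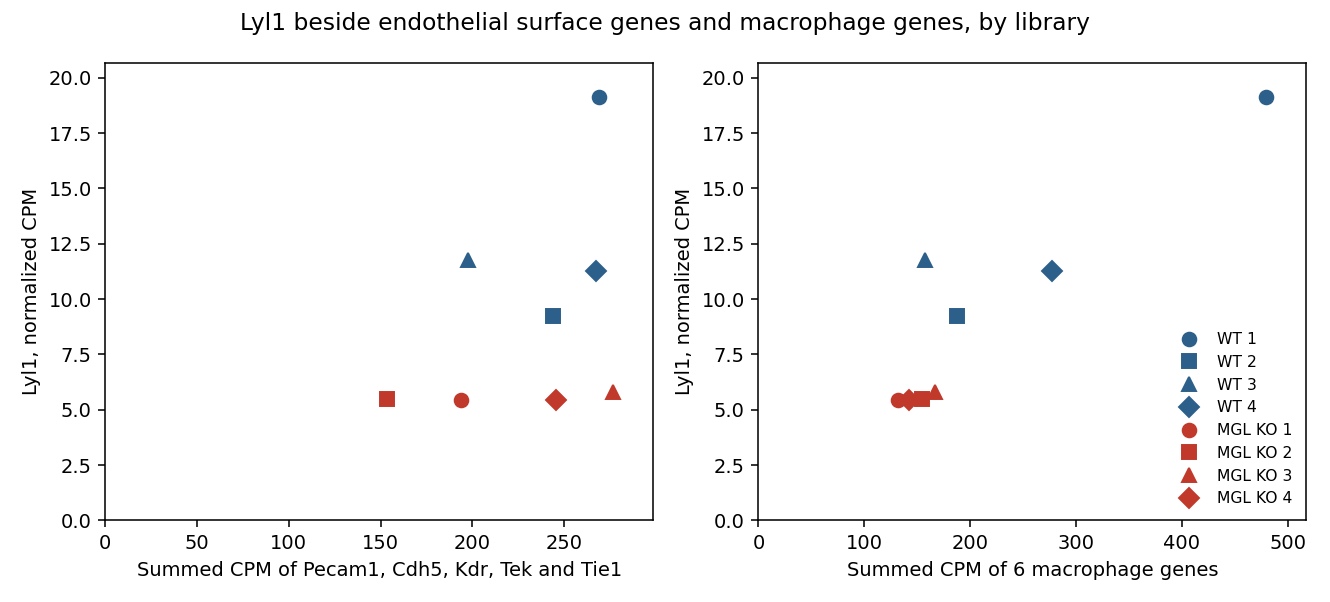
Normalized CPM of Lyl1 (vertical axes, from 0) against the summed CPM of 5 endothelial surface genes (left) and of 6 macrophage genes (right), by library, WT in blue and MGL KO in red. MGL KO libraries stay at 5.45 to 5.80 CPM of Lyl1 over the range of surface genes, and WT replicate 1 is highest in Lyl1 (19.1 CPM) and in macrophage genes (479.1 CPM).

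The 5 genes whose deviations from the group means were most like those of Lyl1, among 14260 genes with a mean of at least 1 CPM, were Zfp87, Tmsb4x, Hgsnat, Dock10 and Fxyd5. Pearson's r was between 0.94 and 0.97 and Spearman's rho between 0.62 and 0.95 over 8 libraries. This likeness rested on WT replicate 1. Without that library, r was between 0.46 and 0.82, and the 5 genes took places 115 to 1273 in the order of likeness. Dock10 was at 10.6 ± 0.68 CPM in MGL KO and 16.1 ± 7.70 CPM in WT (adjusted p = 0.609), with 27.4 CPM in WT replicate 1 and 11.1 to 14.1 CPM in the other WT libraries.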

How the data were processed

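Poly(A)-selected RNA of mouse esophagus was measured in 4 MGL KO and 4 WT libraries, and genotypes and replicate numbers were taken from the sample titles. The authors deposited raw counts per gene symbol after FastQC 0.11.9, Cutadapt and STAR 2.7.10b alignment to GRCm39. The annotation, counting tool and strand setting are not given in the sources used here, so reads of overlapping genes may be shared or lost. Library totals were 13479069 to 17090152 counts, and no pair of replicates agreed within sampling noise (chi-square per degree of freedom of 13.6 or more).

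From the counts, 14864 genes were kept by filterByExpr (minimum count of 10) and scaled by TMM, and MGL KO was compared with WT by the quasi-likelihood test of edgeR 4.0.16 (R 4.3.3), with Benjamini-Hochberg adjustment over all genes and a threshold of 0.05. Standard errors are the size of the log2 fold change over the square root of F. The main fit was also run on counts simulated from its own fitted model, where it had to recover the set fold changes. That check set no limit on false calls in the real libraries. Positions and exon lengths come from GENCODE on GRCm39, promoters from RefSeq on GRCm38.p6.

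The 10 genes and the gene lists were chosen with earlier results of these data known. Named are the 10 genes, Mgll, in each of 6 blood vessel lists up to 3 genes with the smallest p, in other lists (ligands and lymphatic genes included) up to 2 with the highest mean, 5 genes most like Lyl1 and its nearest neighbors. For squamous epithelium, skeletal muscle, fibroblasts, airway cells, adipocytes and Y-linked genes, sums or medians are given. Alternatives were the exact test, DESeq2 1.42.0, limma-voom with quality weights for the libraries (limma 3.58.1, called limma-voom here), RLE factors, library size alone, no filter, a replicate block, a Y-linked covariate, other thresholds and leaving out each library.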

Additional observations from a re-analysis of the deposited data

Results flagged for a closer look

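Of 66 groups of 4 values compared by Dixon's test, 7 had a library far from the rest, where chance gives about 3.3, or 1 in 20. Lyl1 was high in MGL KO replicate 3 (5.80 CPM, the next at 5.50), a gap smaller than the counting error of either library.

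WT replicate 1 stood apart in 3 of the genes most like Lyl1, with Tmsb4x at 520.2 CPM (next 397.2), Hgsnat at 42.2 (next 35.1) and Fxyd5 at 28.7 (next 14.8). These genes were picked for following Lyl1, which is highest in that library.

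MGL KO replicate 4 was high in the sum of the other endothelial transcription factors (742.4 CPM, next 355.5), and Epas1 alone, named after its values were seen, reached 507.5 CPM there against at most 155.2 elsewhere. The same library was high in airway ciliated genes (516.2 CPM, next 15.6). WT replicate 3 was high in the summed VEGF and angiopoietin ligands (455.7 CPM, next 339.2).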

How the results depend on the processing

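The log2 fold change of Lyl1 stayed below 0 in all 17 fits, between -1.34 and -0.95, and those of Erg, Sox17 and Tek did too. Lmo2 was below 0 in 7 of 17, and Tal1, Pecam1, Cdh5, Kdr and Tie1 each in 16 of 17. No value of the 10 genes moved by more than its SD between replicates. With 4 libraries per group, leaving out 1 can hardly move a value that far, so this measure says little about those fits. The exact test and DESeq2 each called 1 of the 10 genes, Lyl1 (0.437% and 0.981% of all genes), and 2 had an unadjusted p under 0.05 (8.65% of all genes). DESeq2 called 1 of the 70 other vessel genes, and 7 had an unadjusted p under 0.05. Over all genes, the count of 7 was 65 in the exact test, 138 with DESeq2, 25 with limma-voom, 2 without a filter, 3 with the Y-linked covariate, 13 at an adjusted p under 0.1, and 2 to 5 with 1 library left out. The share of higher genes moved with them, from 3 of 7 to 42 of 65 in the exact test, 79 of 138 with DESeq2, 20 of 25 with limma-voom and 5 of 6 with library size alone. The cause was not tested, other than that fewer libraries and another threshold change counts by construction.

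With the replicate number as a replicate block, 2 genes were called, 0 of them among the 10 genes or the other vessel genes, and Lyl1 was at -1.16. Deviations of same-numbered libraries correlated at -0.14, -0.28, -0.14 and 0.08 over all genes tested. Pairs with different numbers were not compared, and the labels name nothing beyond the number that such libraries share. Leaving out WT replicate 1 for the macrophage genes was chosen after the data were seen, and 3 in place of 6 then had an unadjusted p under 0.05. The depth of 61 to 97 counts limits Lyl1 in MGL KO, and differences among those libraries were not detectable.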

Other observations

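Stromal genes were measured beside the vessel genes. Fibroblast genes were below 0 for 6 of 6, against 47% of all genes (median log2 fold change -0.33), and 2 of them had an unadjusted p under 0.05, against 4.29% of all genes. The median was -0.61, with 5 such genes, without MGL KO replicate 3, and -0.16, with 1, without MGL KO replicate 2. Dcn, which encodes the matrix proteoglycan decorin, was at 450.7 ± 70.4 CPM in MGL KO and 577.5 ± 51.7 CPM in WT (adjusted p = 0.550 in the quasi-likelihood test of edgeR). Its groups did not overlap, as for 6.02% of all genes. Col3a1 was at 665.9 ± 356.3 and 751.0 ± 218.1 CPM. Genes of mural cells, which wrap small vessels, had a median of -0.23 over 7 genes, or -0.46 without MGL KO replicate 3. Among them, Rgs5 was at 172.4 ± 34.6 CPM in MGL KO and 222.1 ± 15.9 CPM in WT (adjusted p = 0.550), and Abcc9 at 192.1 ± 29.5 and 211.2 ± 18.8 CPM (adjusted p = 0.776). Cspg4, named after its values were seen, lay the other way, at 85.6 ± 15.2 and 64.1 ± 5.65 CPM (log2 fold change 0.42, standard error 0.14, adjusted p = 0.503). Adipocyte genes were above 0 for all 5, while 47% of all genes were below 0. Their sums were 79.8 to 503.9 CPM in MGL KO and 59.0 to 330.2 CPM in WT. Without MGL KO replicate 4, 4 of these 5 were below 0 and the median was -0.17 in place of 0.40, and with another library left out it ran from 0.02 without WT replicate 3 to 1.23 without WT replicate 1. Squamous epithelial genes had a median of 0.06 over 8 genes (with 1 library left out, from -0.27 without MGL KO replicate 1 to 0.34 without WT replicate 2), with sums of 4099 to 16808 CPM in MGL KO and 4803 to 17806 CPM in WT.

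Among the 5 tested genes nearest to Lyl1 on each side that do not overlap it, 1 had an unadjusted p under 0.05 in edgeR's quasi-likelihood test, against 8.65% of all genes. This was Cacna1a, a neuronal calcium channel gene 59938 bases away, named after its values were seen. It was at 84.8 ± 19.6 CPM in MGL KO and 146.0 ± 21.0 CPM in WT (log2 fold change -0.78, standard error 0.18, adjusted p = 0.319), without overlap, as were 6.02% of all genes.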
